A study of Mus musculus with 4 samples.

Results

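The genes described here are the nuclear genes of oxidative phosphorylation, the machinery of the inner mitochondrial membrane that passes electrons from nutrients to oxygen and makes ATP. Members were taken by symbol, as every gene whose name starts with Nduf, Uqcr, Atp5 or Cox4 to Cox8, together with Sdha, Sdhb, Sdhc, Sdhd, Cyc1 and Cycs. The rule found 94 genes among the 24421 gene rows of the tables, and the rule itself uses no measured value, although it was written with earlier results of these data known. Complex I held 36 of them, its assembly factors 7, complex II 4, complex III 9, complex IV 19 and complex V 15. Cytochrome c was represented by Cycs alone, and 3 symbols named factors that are not fixed subunits of 1 complex (Atp5s, Atp5sl and Cox7a2l). The tables held 0 genes of mitochondrial DNA, so only the nuclear share of each complex was measured.

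RNA was sequenced from 4 tumors grown from J558, a mouse plasmacytoma line that resembles plasma cells, in female BALB/c mice. Each tumor was taken on day 6 from a mouse given the vehicle (0.5% methylcellulose) or TAK-931, an oral inhibitor of the DNA replication kinase CDC7, at 60 mg/kg once daily. The libraries were Vehicle-1, Vehicle-2, TAK-931-1 and TAK-931-2, with n = 2 per group. Values of the 4 libraries are given below in this order, so that a pair of values with TAK-931 gives TAK-931-1 first. All 4 mice carried the same cell line, and the BALB/c mice of the study were BALB/cAJcl aged 4 weeks. No genetic change of the host is named for them. The tumors were sequenced whole, so host cells could contribute to every value.

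In the respiratory chain, complex I (NADH dehydrogenase) and complex II (succinate dehydrogenase) feed electrons to complex III, cytochrome c carries them to complex IV (cytochrome c oxidase), and complex V (ATP synthase) uses the resulting proton gradient. Most subunits are encoded in the nucleus, and a few are encoded in mitochondrial DNA and made on mitochondrial ribosomes. Several nuclear subunits exist as isoforms made in particular tissues, such as the muscle and heart isoforms of complex IV. Plasma cells secrete large amounts of protein and rely on mitochondria for the energy this takes.

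The libraries held between 16487902 and 19589339 counts. The TAK-931-treated tumors differed from each other more than the vehicle-treated tumors did, with a biological coefficient of variation of 0.58 in the TAK-931 pair and 0.132 in the vehicle pair. The 8 markers of J558 and plasma cells, among them Sdc1 and Xbp1, were all lower in TAK-931-1 than in either control, where their median log2 ratio (library over vehicle mean) was -1.41. In TAK-931-2, 5 of these 8 markers lay above and 3 below both controls (median 0.26). The 6 T cell markers had median log2 ratios of 6.79 and 2.54 in the treated tumors, and the 6 macrophage markers 3.85 and 1.41. The 6 fibroblast markers stood at 2.95 and 1.11, and the 6 endothelial markers at 1.70 and -0.25. Pericyte and smooth muscle markers (6) stood at 1.95 and 0.59, and the 4 tested adipocyte markers at 2.26 and -1.33. All 8 plasma cell markers were detected in every library, from 339 counts of Tnfrsf17 in TAK-931-1 upwards. Fewer cells of a type and less RNA per cell cannot be told apart in whole tumors, and the part of these markers in the results below was not tested.

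The nuclear genes of oxidative phosphorylation were mostly a little lower in the TAK-931-treated tumors, and among the members of complex IV higher and lower values were about equally frequent. All members together took 1.70% and 1.72% of the counts with vehicle and 1.26% and 1.58% with TAK-931. Both treated tumors therefore lay below both controls, and TAK-931-1 was the lowest. The group means were 1.71% ± 0.0142 (SD, n = 2) and 1.42% ± 0.225 (SD, n = 2). An exact two-sided permutation test of 2 against 2 libraries cannot go below p = 0.333, and the value here was p = 0.333.

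Of the 94 members, 89 passed the filter on low counts and could be tested. Ndufs5 and Cox8c had 0 counts in every library, and Cox6b2, Cox7b2 and Cox8b were too low. The median log2 fold change of the 89, TAK-931 against vehicle, was -0.29, against 0.02 for all 13669 genes tested. Measured per library against the vehicle mean, the median member stood at 0.77-fold and 0.853-fold in the treated tumors. In 59 members (66.3%) both treated tumors lay below both controls in CPM, which are counts relative to the scaled size of each library, where the same held for 32.7% of all genes tested. In 7 members (7.87%) both lay above, where this held for 30% of all genes, and in 23 members the groups overlapped. The 7 were Cox6b1, Cox6c, Cox7b, Cox8a, Cox7a2l, Atp5l and Atp5j2. With median-of-ratios scaling 52 members lay lower (30.3% of all genes) and 7 higher (31.9%), and with library size only 52 lay lower (30.6%) and 7 higher (31.3%).

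**Figure D1:**
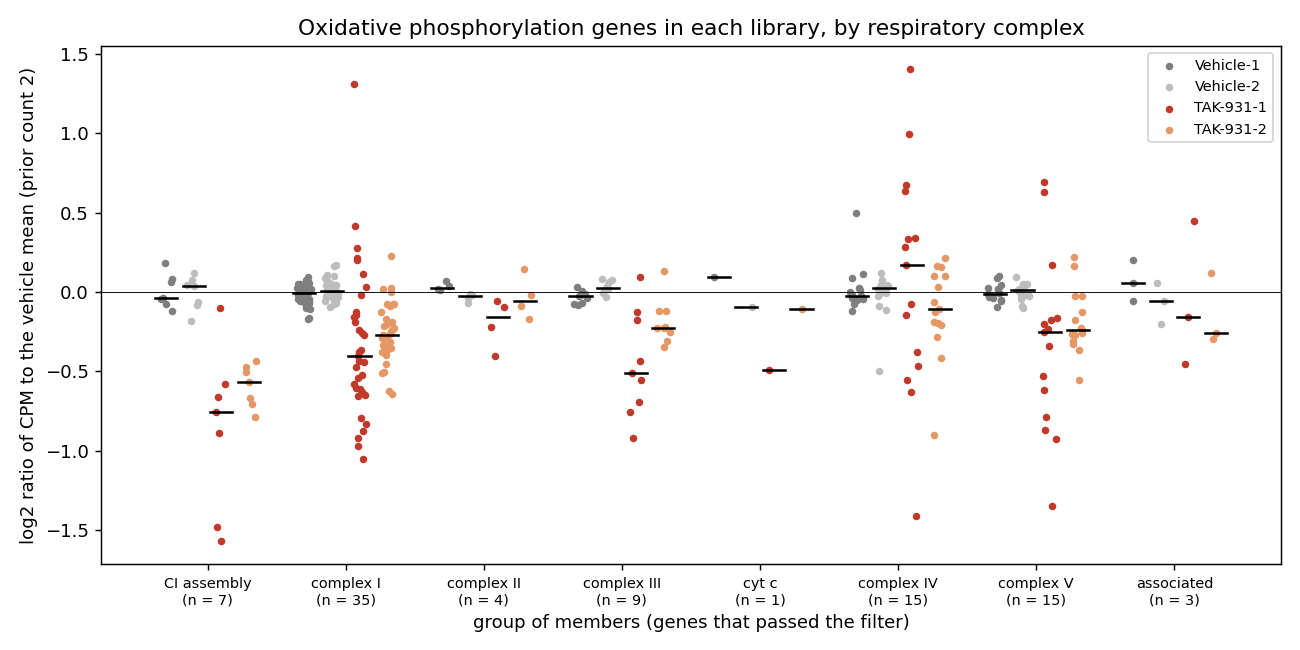
Log2 ratio of CPM in each library to the mean of the vehicle-treated libraries, for the 89 members that passed the filter, by respiratory complex; each point is 1 gene and black bars are medians. The medians of complex I lie at -0.41 and -0.27 in the treated tumors, whereas those of complex IV lie at 0.17 and -0.11.

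No member passed an adjusted p of 0.05 in edgeR's quasi-likelihood test, and neither did any other gene (0% of 13669 genes; lowest adjusted p = 0.275). At an unadjusted p under 0.05, edgeR's test picked 2 members, Cox6a2 and Ndufb4, both lower (2.25% of 89), compared with 18.1% of all genes in either direction and 6.55% of all genes in the lower direction. Other tools gave no member at an adjusted p of 0.05. DESeq2 called 11% of the genes with an adjusted value, a fit with the replicate number as a block called 1.05%, and limma-voom called 0%, with 0 members in each. At an unadjusted p under 0.05, limma-voom picked 6 members against 14.3% of all genes.

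The calls depended on which treated tumor was in the fit. Without TAK-931-1, 26 of 89 members were called, all lower, where 28.7% of all genes were called (16.1% lower and 12.6% higher). Without TAK-931-2, 57 of 90 members were called, 47 of them lower and 10 higher, where 58.1% of all genes were called (29.8% lower and 28.2% higher). Without Vehicle-1 or without Vehicle-2, 0 members and 0% of all genes were called. At an unadjusted p under 0.05 the members numbered 48 without TAK-931-1 (background 40.8%), 63 without TAK-931-2 (63.1%), 0 without Vehicle-1 (6.86%) and 0 without Vehicle-2 (6.98%). In each of these fits the group left with 1 library was assumed to vary like the other. Of the 89 members, 72 lay lower and 11 higher without overlap when TAK-931-1 was left out, against 44.4% and 42.3% of all genes, and 66 lower and 19 higher when TAK-931-2 was, against 47.4% and 46.1%. Leaving out Vehicle-1 gave 64 lower and 8 higher (37.6% and 34.2% of all genes), and leaving out Vehicle-2 gave 61 and 9 (36.8% and 36.5%). The median log2 fold change of the members was -0.23 without TAK-931-1 and -0.39 without TAK-931-2.

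Genes of this pathway are known to share promoter elements, among them sites for the respiratory factors NRF1 and GABP, cyclic AMP response elements (CRE) and sites for estrogen-related receptors (ERR). Because many members lay lower together, the promoter windows of RefSeq (build GRCm38.p6, 250 bases before to 50 bases after the start) were searched on both strands for 1 spelling of each element. A window was found for 74 of the 94 members. The 3 promoters below are shown up to the base before the start, read 5′ to 3′ on the strand of the gene, because they carry these spellings in a cytochrome, in the complex IV subunit with the highest level per length and in an assembly factor. Capitals mark the letters that matched.
Cycs, chr6:50566570-50566819, minus strand: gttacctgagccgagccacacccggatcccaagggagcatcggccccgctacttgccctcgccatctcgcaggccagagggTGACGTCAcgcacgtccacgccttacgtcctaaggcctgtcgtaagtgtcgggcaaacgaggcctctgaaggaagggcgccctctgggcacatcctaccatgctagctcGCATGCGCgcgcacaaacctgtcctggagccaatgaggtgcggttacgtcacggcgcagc
Cox6a1, chr5:115348959-115349208, minus strand: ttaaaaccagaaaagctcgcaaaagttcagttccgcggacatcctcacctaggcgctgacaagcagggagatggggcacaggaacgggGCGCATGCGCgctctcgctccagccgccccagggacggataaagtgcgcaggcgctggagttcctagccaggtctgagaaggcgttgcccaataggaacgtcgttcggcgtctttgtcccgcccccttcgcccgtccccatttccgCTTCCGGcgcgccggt
Ndufaf4, chr4:24897833-24898082, plus strand: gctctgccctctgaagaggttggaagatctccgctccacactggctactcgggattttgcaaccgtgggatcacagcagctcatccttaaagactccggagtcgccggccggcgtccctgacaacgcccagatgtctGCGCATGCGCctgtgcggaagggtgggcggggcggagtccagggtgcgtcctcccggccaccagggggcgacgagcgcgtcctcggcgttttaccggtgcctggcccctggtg

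In the Cycs promoter the CRE spelling TGACGTCA began 169 bases before the start and the NRF1-type spelling GCATGCGC began 60 bases before it. In Cox6a1 the NRF1-type spelling was found on both strands, overlapping, from 162 bases before the start, and the GABP-type spelling CCGGAAG lay on the other strand from 16 bases before it. In Ndufaf4 the NRF1-type spelling was likewise found on both strands, overlapping, from 113 bases before the start. The RefSeq start of Cycs lay 95 bases from the gene's 5′ end in the tables, that of Cox6a1 3 bases and that of Ndufaf4 0 bases.

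The NRF1-type spelling was present in 13 of the 74 member promoters (17.6%) and in 3.05% of the promoter windows of 27025 genes. Its 13 carriers had a median log2 fold change of -0.32, and the 57 tested members without it had -0.25. The GABP-type spelling was present in 17 (23.0%) and in 9.93% of genes, with medians of -0.15 for its 17 carriers and -0.30 for 53 members without it. TGACGTCA was present in 5 (6.76%) and in 2.03% of genes, and the ERR-type spelling TGACCTT in 8 (10.8%) and in 5.38% of genes. These are matches of letters and not binding sites, and lower values were seen with and without them.

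Complex I takes electrons from NADH. Its members shared the general pattern, with 22 of 35 tested genes lower in both treated tumors than in either control (62.9%, background 32.7%), 0 higher (background 30%) and 13 overlapping. The median log2 fold change was -0.31. The 7 core subunits, which carry the cofactors and the electron path, had a median of -0.39, and in 6 of them both treated tumors lay lower (85.7%, background 32.7%). The 28 tested accessory subunits had a median of -0.27, with 16 lower (57.1%, background 32.7%) and 12 overlapping. Complex I took 0.40% and 0.404% of the counts with vehicle and 0.299% and 0.351% with TAK-931.

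Ndufb4 (chr16:37647602-37654368, mm10), an accessory subunit of the membrane arm, was at 60.5 and 63.7 CPM with vehicle and at 34.8 and 43.6 CPM with TAK-931. Both treated values lay well below both controls, at 0.561-fold and 0.703-fold of the vehicle mean. Its log2 fold change was -0.66 with an SE of 0.23 (edgeR adjusted p = 0.275). The groups of 2 other accessory subunits did not overlap either. Ndufb6 was at 116, 120, 56.9 and 89.6 CPM in the same order (log2 fold change -0.69), and Ndufa9 at 185, 172, 94.2 and 130 CPM (-0.67). In all 3 genes TAK-931-1 was the lowest library.

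Ndufb8, a membrane-arm subunit, had the highest level per length of complex I, with 282 CPM per kilobase of exon averaged over the 4 libraries. It was at 208 and 210 CPM with vehicle and at 158 and 147 CPM with TAK-931, so its treated values lay close to each other (log2 fold change -0.45, SE 0.21). Ndufv1, the core subunit that binds NADH, was at 204 and 202 CPM with vehicle and 104 and 161 with TAK-931 (-0.62). Ndufs1, the largest core subunit, was at 190, 184, 102 and 158 CPM (-0.53).

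At the other end, the groups overlapped. Ndufa3, a small accessory subunit, was at 35.8 and 39.6 CPM with vehicle and at 93.3 and 35.6 CPM with TAK-931. The high value came from TAK-931-1 alone, and the log2 fold change of 0.78 (SE 0.51) turned to -0.08 without that library. Ndufs4, an accessory subunit of the matrix arm, was at 43.1, 49.9, 56.2 and 42.4 CPM (0.09, and -0.14 without TAK-931-1). The 0 counts of Ndufs5 came with an exon overlap of 95.1% with BC002163 on the same strand, which leaves almost no base that reads could be assigned to alone.

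The 7 assembly factors of complex I, which build the complex but are not part of it, had a median below that of each complex. All 7 were lower in both treated tumors than in either control (background 32.7%), with a median log2 fold change of -0.67, or medians of 0.592-fold and 0.675-fold by tumor. Their share of the counts was 0.0183% in both controls and 0.00965% and 0.0128% with TAK-931. Their levels were low, between 4.23 and 22.6 CPM per kilobase. No difference between these factors and the subunits was tested.

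Ndufaf6 was at 20.9 and 21.9 CPM with vehicle and at 7.59 and 13.1 CPM with TAK-931, a log2 fold change of -1.05 (SE 0.40). Ndufaf7, a methyltransferase that modifies a core subunit, was at 36.8, 43.5, 13.4 and 27.0 CPM (-0.99, SE 0.42). In both genes the treated tumors differed from each other by more than the controls did. Ndufaf4, whose promoter is shown above, was at 41.6 and 32.3 CPM with vehicle and at 23.2 and 23.1 CPM with TAK-931 (-0.68, SE 0.26). Its treated values had an SD of only 0.0526 CPM, and the wider spread was between the controls. Ndufaf2, a paralog of the subunit Ndufa12, had the highest level per length of the factors and was at 17.8, 19.9, 10.1 and 13.5 CPM (-0.67). By edgeR's test the adjusted p of Ndufaf6 was 0.277, that of Ndufaf7 0.286, that of Ndufaf4 0.276 and that of Ndufaf2 0.326.

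**Figure D2:**
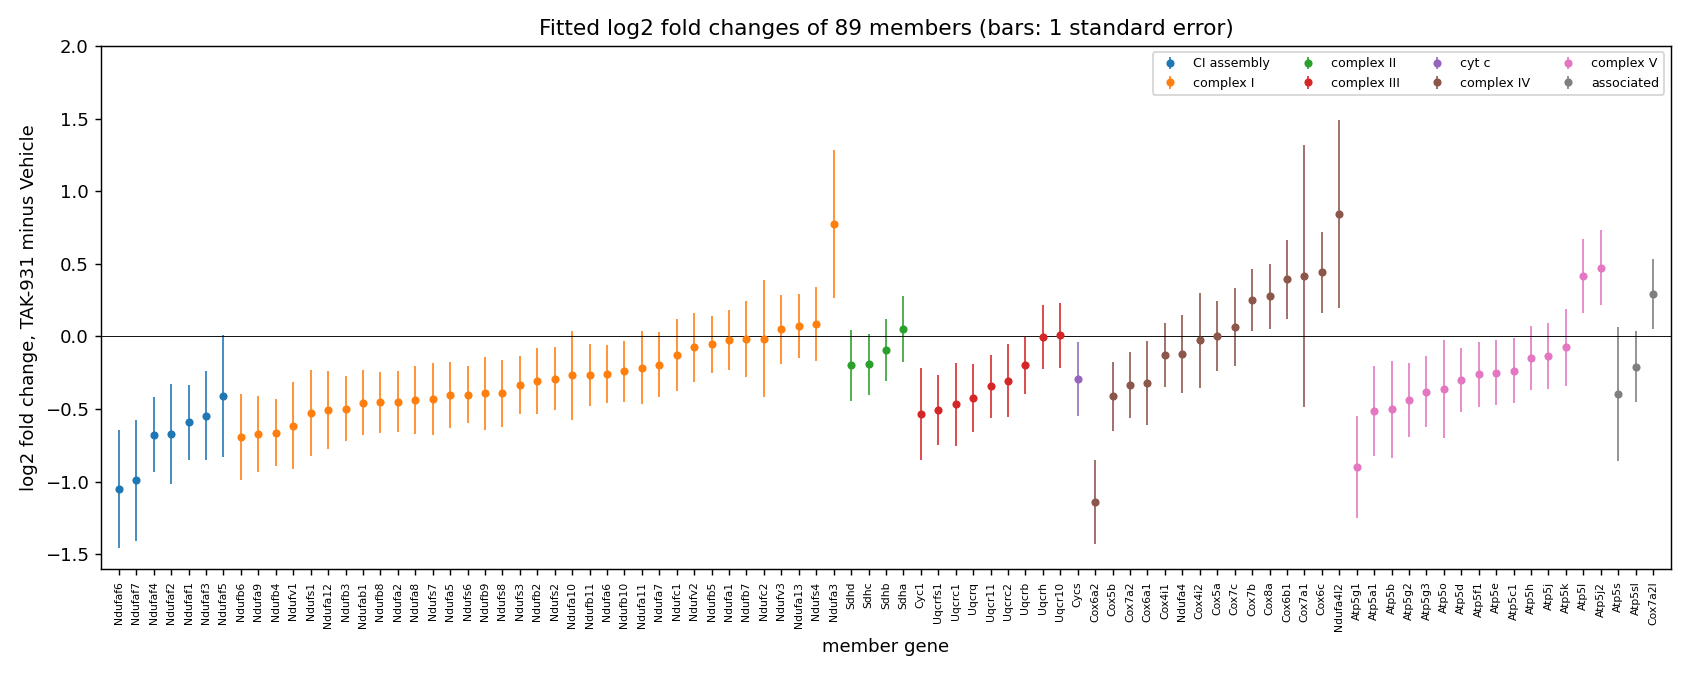
Fitted log2 fold change, TAK-931 minus Vehicle, of each of the 89 tested members, ordered within its complex, with bars of 1 standard error (edgeR). The assembly factors of complex I lie between -1.05 and -0.41, and complex IV runs from -1.14 for Cox6a2 to 0.84 for Ndufa4l2.

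Complex II, which is also an enzyme of the tricarboxylic acid cycle and has no subunit from mitochondrial DNA, differed little between the groups. Its 4 members had a median log2 fold change of -0.14. The median was -0.0587 without TAK-931-1, -0.18 without TAK-931-2, -0.0937 without Vehicle-1 and -0.21 without Vehicle-2. Sdha, the flavoprotein that oxidizes succinate, was at 219 and 208 CPM with vehicle and 206 and 237 with TAK-931 (log2 fold change 0.05, and -0.08 without TAK-931-2). Sdhb, the iron-sulfur subunit, was at 187 and 170 CPM with vehicle and 167 and 167 with TAK-931 (-0.09). The membrane anchors were slightly lower in both treated tumors: Sdhc was at 190, 186, 162 and 167 CPM (-0.19). Sdhd was at 188, 185, 141 and 184 CPM (-0.20), so that TAK-931-2 lay just under the controls. For Sdhb, Sdhc and Sdhd (3 of 4, background 32.7%) the groups did not overlap, yet each log2 difference was smaller than its SE (0.21, 0.21 and 0.24).

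Complex III passes electrons from ubiquinol to cytochrome c. Of its 9 members 7 lay lower in both treated tumors (77.8%, background 32.7%), 0 higher (background 30%) and 2 overlapped, and the median log2 fold change was -0.34. The per-library medians were 0.703-fold and 0.854-fold in the treated tumors. The median log2 fold change was -0.23 without TAK-931-1 and -0.53 without TAK-931-2. Cyc1, cytochrome c1, was at 267 and 265 CPM with vehicle and 141 and 227 with TAK-931 (-0.53, SE 0.32). Uqcrfs1, the Rieske iron-sulfur protein, was at 224, 215, 136 and 173 CPM (-0.51, SE 0.24). Both catalytic subunits thus showed tight controls and a lower, wider treated pair. Uqcrq, a small subunit with the highest level per length of the complex (526 CPM per kilobase), was at 293, 308, 205 and 243 CPM (-0.43). Uqcr10, another small subunit, was at 111, 124, 108 and 128 CPM, with overlapping groups (0.01).

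Cycs, the soluble carrier between complexes III and IV, which also triggers apoptosis when it leaves mitochondria, was at 217 and 191 CPM with vehicle and at 145 and 189 CPM with TAK-931. The value of TAK-931-2 lay only just under Vehicle-2. The log2 fold change was -0.29 with an SE of 0.25 (edgeR adjusted p = 0.511).

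Complex IV reduces oxygen. Of its 15 tested genes, 5 lay lower (33.3%) and 4 higher (26.7%) in both treated tumors, and 6 overlapped, close to the 32.7% and 30% of all genes. Its difference from the other complexes was not tested. The median log2 fold change was 0.00, and it was 0.21 without TAK-931-2 and -0.11 without TAK-931-1, so its sign followed the treated tumor that was kept. Among the 11 subunits without the tissue isoforms, 4 lay lower and 4 higher, with the same median. Complex IV took 0.306% and 0.317% of the counts with vehicle and 0.284% and 0.313% with TAK-931 (exact two-sided permutation p = 0.667).

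The 4 complex IV genes higher in both treated tumors encode small nuclear subunits. Cox6c was at 181 and 160 CPM with vehicle and at 272 and 190 CPM with TAK-931 (log2 fold change 0.44, SE 0.28). Cox6b1, which faces the intermembrane space, was at 107, 113, 171 and 118 CPM (0.39, SE 0.27). In both genes the value of TAK-931-2 lay close to the controls and that of TAK-931-1 was the highest. Cox8a was at 270, 269, 339 and 313 CPM (0.28, SE 0.22). Cox7b was at 127, 135, 166 and 146 CPM (0.25, SE 0.21).

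The lower members included the subunits with the most reads per length. Cox6a1, the widely used form of subunit VIa, had 1114 CPM per kilobase and was at 641, 677, 426 and 631 CPM (-0.32, SE 0.29). Cox4i1, the widely used form of subunit IV, was at 611, 635, 563 and 578 CPM (-0.13, SE 0.22). Neither difference was far above its SE, and in Cox6a1 the low value was that of TAK-931-1. Cox5b was at 337 and 347 CPM with vehicle and 233 and 281 with TAK-931 (-0.41, SE 0.24). Cox7a2, the widely used form of subunit VIIa, was at 179, 186, 132 and 158 CPM (-0.33).

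Cox6a2 (chr7:128205435-128206366, mm10), the heart and muscle form of subunit VIa, had the most negative log2 fold change of all members. It was at 49.9 and 42.7 CPM with vehicle and at 17.3 and 24.7 CPM with TAK-931. Both treated values lay below both controls, at 0.374-fold and 0.533-fold of the vehicle mean, with TAK-931-1 the lower. The group means were 46.3 CPM ± 5.13 and 21.0 CPM ± 5.2 (SD, n = 2 each). The log2 fold change was -1.14 with an SE of 0.29 (edgeR adjusted p = 0.275). It was -0.91 without TAK-931-1 (adjusted p = 0.00391) and -1.44 without TAK-931-2 (adjusted p = 0.00162), with edgeR's test in both fits, in which 28.7% and 58.1% of all genes were called. Without Vehicle-1 it was -1.02 (edgeR adjusted p = 1), and without Vehicle-2 it was -1.27 (edgeR adjusted p = 0.821).

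Because Cox6a2 is a muscle isoform, skeletal muscle genes were read beside it. All 18 tested muscle genes lay above both controls in TAK-931-1, and 16 of 18 lay below both in TAK-931-2, with summed levels of the list of 160, 157, 1196 and 46.4 CPM. Acta1, the actin of skeletal muscle, was at 54.4, 48.4, 344 and 0.525 CPM, and Myh7, the slow muscle myosin, had 0 counts in every library. Cox6a2 lay below both controls in TAK-931-1 and, like most of the muscle genes, in TAK-931-2. The part of muscle tissue in the values of Cox6a2 was not tested. The exons of Cox6a2 overlap those of Itgad on the opposite strand over 69 of 659 bases. Itgad had 45, 48, 51 and 18 counts, few beside those of Cox6a2.

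Within a library, Cox6a2 reached 6.30% of the level of Cox6a1 per kilobase in Vehicle-1 and 5.10% in Vehicle-2, and 3.29% and 3.17% in TAK-931-1 and TAK-931-2. The treated tumors lay together on this ratio, which does not depend on the scaling between libraries. The log2 ratio differed by -0.81, and the exact two-sided permutation p was 0.333, the smallest that 2 against 2 allows. It was 1 of 7 isoform ratios computed.

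The other tissue or condition isoforms of complex IV were low. Ndufa4l2, a paralog of the complex IV subunit Ndufa4 that is known to be raised in hypoxia, was at 6.17 and 6.05 CPM with vehicle and 16.3 and 5.60 with TAK-931. Only TAK-931-1 stood apart, and the log2 fold change of 0.84 (SE 0.65) became -0.13 without it. Ndufa4 itself was at 227, 242, 180 and 252 CPM (-0.12, and 0.10 without TAK-931-1). Cox4i2, the lung form of subunit IV, was at 13.7, 16.2, 14.1 and 15.2 CPM, with overlapping groups, and its log2 fold change of -0.03 was 0.02 under median-of-ratios scaling. Cox7a1, the muscle form of subunit VIIa, was at 1.30, 0.599, 1.90 and 0.642 CPM (0.41, SE 0.90, and -0.57 without TAK-931-1).

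Forms of the testis and of heart and muscle were mostly near or at the floor, where a count of 0 allows between 0.158 and 0.180 CPM. Cox6b2 had 4, 8, 48 and 4 counts, Cox8b had 4, 2, 10 and 0 counts, Cox7b2 had 0, 0, 0 and 8 counts, and Cox8c had 0 counts throughout. Cox6b2 and Cox8b were highest in TAK-931-1, as Cox7a1 and Ndufa4l2 were. Of the 7 ratios, Cox4i2 to Cox4i1 differed by 0.10 and Cox7a1 to Cox7a2 by 0.66 on the log2 scale (exact permutation p = 0.667 each). Ndufa4l2 to Ndufa4 differed by 0.79 and Cox6b2 to Cox6b1 by 0.82 (exact permutation p = 1 each). Of these 4 ratios, 3 turned sign without TAK-931-1: Cox7a1 to Cox7a2 was -0.25 (1.57 without TAK-931-2), Ndufa4l2 to Ndufa4 -0.23 (1.80) and Cox6b2 to Cox6b1 -0.63 (2.27). Without Vehicle-1 and without Vehicle-2, Cox7a1 to Cox7a2 was 1.24 and 0.0726, and Cox6b2 to Cox6b1 was 0.35 and 1.29. Cox4i2 to Cox4i1 lay between 0.0114 and 0.20 with 1 library left out.

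**Figure D3:**
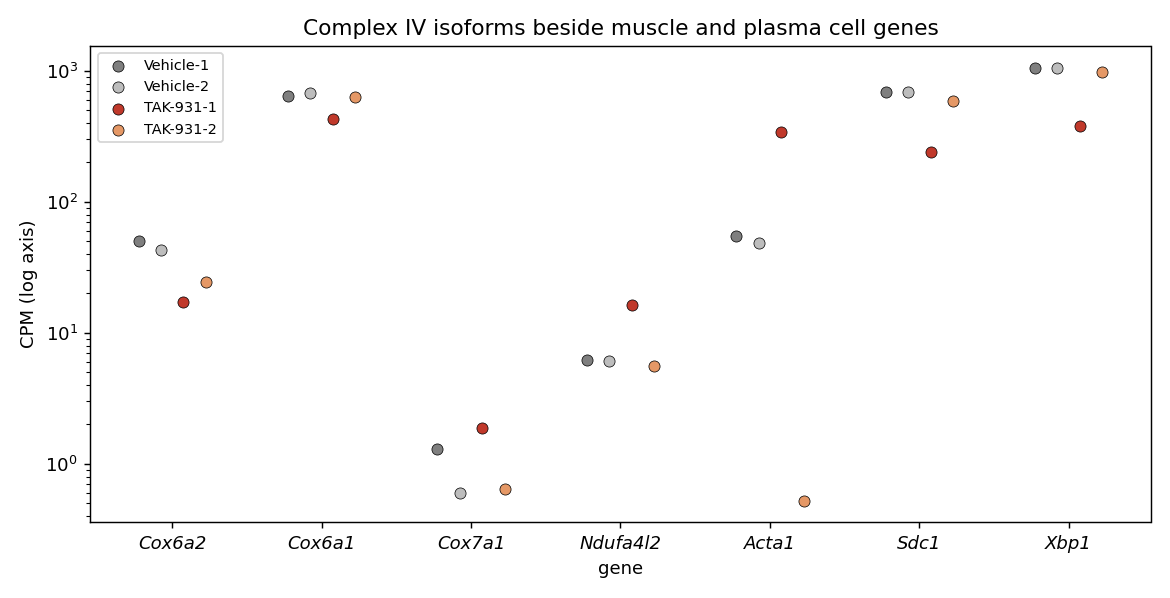
CPM (log axis) in each library of Cox6a2, its partner Cox6a1, the isoforms Cox7a1 and Ndufa4l2, the muscle gene Acta1 and the plasma cell genes Sdc1 and Xbp1. Each point is 1 library. Sdc1 and Xbp1 are among the 3 of 8 plasma cell markers that lie below both controls in TAK-931-2, where the other 5 lie above both. Cox6a2 is at 17.3 CPM in TAK-931-1, where Acta1 is at 344 CPM, and at 24.7 CPM in TAK-931-2, where Acta1 is at 0.525 CPM.

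Complex V makes ATP with a catalytic head (F1) driven by a membrane rotor and stalk (Fo). Of its 15 members 12 lay lower in both treated tumors (80%, background 32.7%), 2 higher (13.3%, background 30%) and 1 overlapped, with a median log2 fold change of -0.26. The 5 F1 subunits were all lower (median -0.30), and of the 10 Fo and stalk subunits 7 were lower, 2 higher and 1 overlapping (median -0.21), with the same backgrounds of 32.7% lower and 30% higher. Complex V took the largest share of the counts of any complex, at 0.669% and 0.670% with vehicle and 0.435% and 0.611% with TAK-931.

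Atp5b, the catalytic beta subunit, had the highest level per length of the complex (857 CPM per kilobase). It was at 1879 and 1895 CPM with vehicle and at 996 and 1668 CPM with TAK-931 (log2 fold change -0.50, SE 0.34). Atp5a1, the alpha subunit that alternates with it in the head, was at 1506, 1451, 808 and 1264 CPM (-0.51, SE 0.31). Both genes had almost equal controls, and in both TAK-931-2 lay much nearer to the controls than TAK-931-1 did.

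Atp5g1 (chr11:96072793-96075694, mm10) is 1 of 3 genes that encode the same rotor c subunit with different leader peptides. It was at 276 and 240 CPM with vehicle and at 101 and 176 CPM with TAK-931. The groups did not overlap, and the treated values stood at 0.392-fold and 0.681-fold of the vehicle mean. Its log2 fold change was -0.90 with an SE of 0.35 (edgeR adjusted p = 0.278). Atp5g2 was at 341, 303, 209 and 266 CPM (-0.44), and Atp5g3 at 339, 364, 243 and 297 CPM (-0.38), so all 3 genes lay lower. Per kilobase, Atp5g1 reached 60.2% and 59.2% of the level of Atp5g2 with vehicle and 36.0% and 49.2% with TAK-931. The log2 ratio of Atp5g1 differed by -0.50 to Atp5g2 and by -0.56 to Atp5g3 (exact two-sided permutation p = 0.333 each, the smallest possible). Without TAK-931-1 these were -0.28 and -0.31, and without TAK-931-2 -0.73 and -0.82.

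Of the members of complex V, 2 small membrane subunits lay higher in both treated tumors. Atp5j2, subunit f, was at 112, 109, 178 and 129 CPM (log2 fold change 0.47, SE 0.26). Atp5l, subunit g, was at 118, 121, 185 and 133 CPM (0.42, SE 0.26). As in Cox6c and Cox6b1, TAK-931-1 was the highest library and TAK-931-2 lay nearer to the controls. Cox7a2l, which helps to join complexes III and IV into supercomplexes, was the remaining member higher in both, at 147, 159, 208 and 166 CPM (0.29, SE 0.24).

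Among the 7 members higher in both treated tumors, 5 had exons of under 600 bases in all. The 30 tested members under 600 bases had a median log2 fold change of -0.14 (15 lower, 5 higher and 10 overlapping), and the 59 of at least 600 bases had -0.33 (44 lower, 2 higher and 13 overlapping). Of all genes tested, those under 600 bases had a median of -0.07, with 35.6% lower and 22.8% higher, and those of at least 600 bases had 0.03, with 32.7% lower and 30.1% higher. Across the 89 members, exon length and the log2 ratio to the vehicle mean had a Spearman's rho of -0.27 for TAK-931-1, against -0.09 for TAK-931-2. Across all 13669 genes rho was 0.12 and 0.21, of the opposite sign. These are descriptions across genes, which share their libraries and are not replicates. The part of transcript length or RNA quality in the values was not tested.

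Genes that supply and regulate the same machinery lay lower as well, most evenly among the proteins of the mitochondrial ribosome. Of 77 such genes, 73 lay lower in both treated libraries (94.8%, background 32.7%), 0 higher (background 30%) and 4 overlapped. Their median log2 fold change was -0.66. By edgeR 0 had an adjusted p under 0.05 and 28 an unadjusted p under 0.05, all lower (background 6.55%). DESeq2 called 2 of the 77, where it called 11% of all genes with an adjusted value. Without TAK-931-1 edgeR called 57 (28.7% of all genes), and without TAK-931-2 it called 68 (58.1%). Mrps22, of the small ribosomal subunit, was at 48.7, 52.0, 16.6 and 24.5 CPM (-1.29, SE 0.29, edgeR adjusted p = 0.275). Mrpl24, of the large subunit, was at the other end of the list at 29.8, 40.0, 39.6 and 28.5 CPM (-0.04, and 0.01 under median-of-ratios scaling).

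The 31 tested assembly factors of complexes II to V, of 33 listed, had a median of -0.39, with 18 lower (58.1%, background 32.7%), 4 higher (12.9%, background 30%) and 9 overlapping. By edgeR, 0 of them had an adjusted p under 0.05, while 7 lower and 1 higher had an unadjusted p under 0.05, against 6.55% of all genes lower and 18.1% in either direction. Without TAK-931-1 edgeR called 16 (28.7% of all genes) with a median of -0.36, and without TAK-931-2 it called 18 (58.1%) with -0.62. Atpaf1, a chaperone of the F1 head, was at 28.8, 34.5, 8.38 and 15.6 CPM (-1.40, SE 0.41). Cox20, a chaperone for a complex IV subunit made in mitochondria, was at 18.5, 17.0, 33.0 and 34.7 CPM (0.93, SE 0.25), with both treated tumors alike. The 16 enzyme genes of the tricarboxylic acid cycle, pyruvate dehydrogenase included, had a median of -0.36, with 10 lower (62.5%, background 32.7%) and 6 overlapping, and 0 had an unadjusted edgeR p under 0.05 (background 18.1%). Their median was -0.23 without TAK-931-1 and -0.59 without TAK-931-2, with 6 and 12 called at those same backgrounds. They ranged from Dld, at 300, 282, 122 and 204 CPM (-0.84), to Pdha1, at 50.4, 41.8, 45.8 and 43.9 CPM (-0.04, and 0.01 under median-of-ratios scaling).

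Of 13 tested regulators of mitochondrial biogenesis, 10 lay lower (76.9%, background 32.7%), 1 higher (7.69%, background 30%) and 2 overlapped (median -0.51). By edgeR 0 had an adjusted p under 0.05, and 2 had an unadjusted p under 0.05, both lower (background 6.55%). The median was -0.29 without TAK-931-1, where 6 were called (28.7% of all genes), and -0.80 without TAK-931-2, where 10 were called (58.1%). Nrf1, the factor whose spelling is shown above, was at 63.6, 63.4, 38.8 and 46.4 CPM (log2 fold change -0.58, SE 0.22). Gabpa, a subunit of GABP, was at 72.5, 58.0, 51.5 and 40.4 CPM (-0.51). Its exons overlap those of Atp5j on the opposite strand, and strand use in counting is not stated. Tfam, which packages and transcribes mitochondrial DNA, was at 99.4, 92.7, 46.0 and 66.2 CPM (-0.78), and Tfb1m, a methyltransferase of the mitochondrial ribosomal RNA, at 26.0, 19.96, 8.11 and 10.8 CPM (-1.28).

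Esrra, the estrogen-related receptor alpha, was the regulator that lay higher, at 39.1 and 42.3 CPM with vehicle and 73.5 and 53.9 with TAK-931 (0.65, SE 0.25). Ppargc1b, a coactivator of these factors, was at 10.3, 8.27, 2.69 and 10.7 CPM, with overlapping groups (-0.47, and 0.20 without TAK-931-1). Ppargc1a, its relative known from muscle and brown fat, had 0, 0, 2 and 0 counts. The brown fat markers Ucp1 and Cidea had at most 6 counts in any library.

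**Figure D4:**
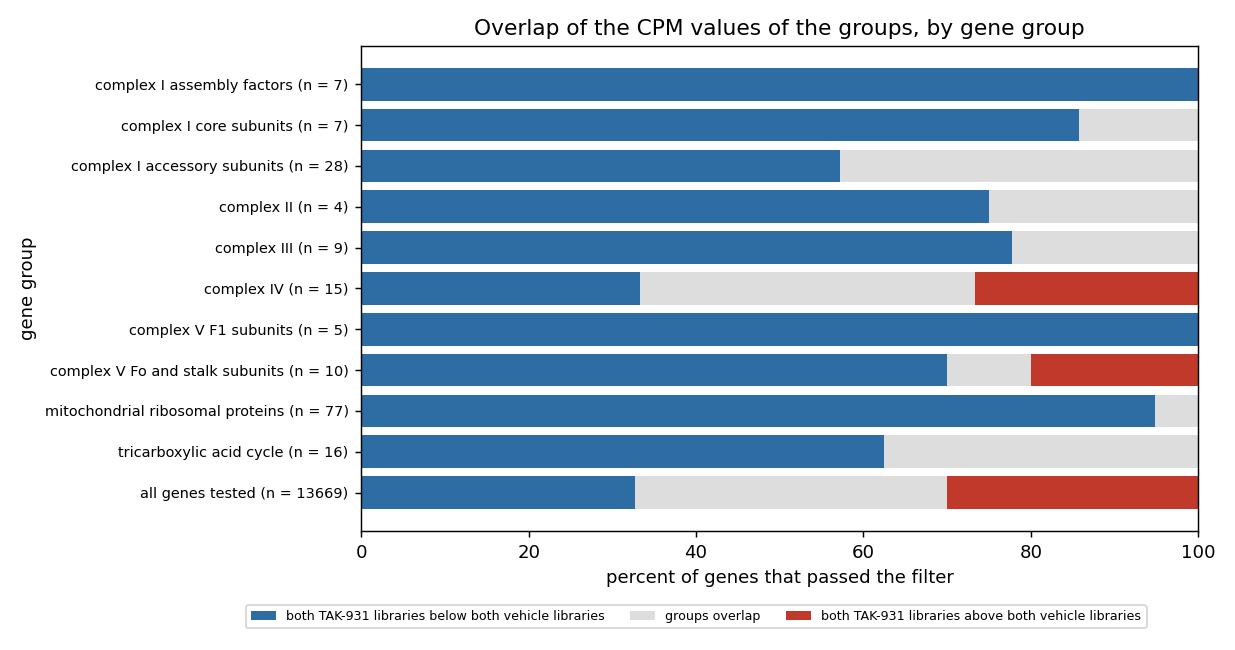
Percent of the tested genes of each group in which both treated tumors lay below both controls in CPM (blue), above both (red) or overlapped with them (grey). The blue share is 100% for complex I assembly factors, 33.3% for complex IV, 94.8% for mitochondrial ribosomal proteins and 32.7% for all genes tested.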

How the data were processed

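The authors deposited 1 table per library of raw read counts per gene with no normalization, and per the file headers these are featureCounts output from uniquely placed reads. The submitters' processing notes name STAR 2.6.1c and build mm10. Strand use is not given in the sources used here. Only 17.9% to 23.9% of the values between 1 and 20 were odd, so both mates of a pair appear to be counted, and the floors of 3 counts, which cover counting error only, are then too low. A further deposited column of another kind holds the summed exon length of each gene. All 94 members overlapped their RefSeq position in GRCm38.p6.

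Low genes were removed by edgeR's filterByExpr (edgeR 4.0.16, minimum count 10, R 4.3.3), and the others were scaled by TMM and tested with its robust quasi-likelihood test, two-sided, with treatment as the only term and Benjamini-Hochberg adjustment over all 13669 genes at 0.05. CPM used TMM-scaled totals, per-library log2 ratios used a prior count of 2, and isoform ratios used counts per kilobase. Scripts were tested on simulated data, where recovery of changed genes was required only at a spread below that of these libraries. Members were named if they were tissue or condition isoforms or their partners, complex II or cytochrome genes, the highest per length or the 2 most negative or positive changes of a complex, or the 3 without overlap with the lowest p in each direction. The extremes of each pathway list and 6 regulators were also named. Ndufv1, Ndufs1, Cox7a2l, Itgad, BC002163 and the markers given by name were chosen after their values were seen. Members, lists and rules were chosen with earlier results of these data known. The titles number the tumors separately, and each was taken as 1 mouse. Same-numbered libraries did not deviate together (correlation 0.004). Alternatives were median-of-ratios factors, library size only, other filters, halved counts, a replicate block, DESeq2 1.42.0, limma-voom (limma 3.58.1), a non-robust fit, an adjusted p of 0.01 and each library left out.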

Additional observations from a re-analysis of the deposited data

How the results depend on the processing

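With 2 libraries per group, the precision for single genes was low. Across genes the treated pair spread more widely than the vehicle pair (coefficient of variation 0.58 against 0.132), while in some genes, such as Ndufaf4, the controls spread more. Depth limits what can be said of Cox6b2, Cox7b2, Cox8b and Cox8c. The median of all members kept its sign under every alternative run. The medians of the complexes were not computed with DESeq2, limma-voom or the non-robust fit. Under the other alternatives they kept their sign, except that of complex IV. It was 0.00 and lay between -0.11 and 0.21 with 1 library left out. With the replicate block it was -0.01, and relative to the median of all genes it was -0.02. The cause of each shift below was not tested.

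All genes called numbered 144 with the replicate block and 1411 with DESeq2. The labels do not say whether same-numbered libraries share more than the number, and their deviations had a correlation of 0.004. With the block 0 members were called, as without it. Members at an unadjusted p under 0.05 numbered 1 with library size only (17.2% of genes), 1 with at least 10 counts in every library (18.5% of genes) and 6 with limma-voom. With at least 10 counts in every library the medians were -0.24 for complex I, -0.0702 for complex II and -0.19 for complex V. The complex V median was -0.21 with median-of-ratios factors, -0.25 with library size only, -0.29 without a filter, -0.23 with halved counts and -0.29 relative to the median of all genes. DESeq2 called 2 of 77 mitochondrial ribosomal protein genes (11% of all genes).

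Leaving out 1 library at a time gave 0 to 8424 genes called, 0 to 57 members called, 0 to 63 members at an unadjusted p under 0.05, and 61 to 72 members lower and 8 to 19 higher without overlap. In the same settings 36.8% to 47.4% of all genes lay lower and 34.2% to 46.1% higher. Medians ranged from -0.39 to -0.23 for all members, -0.43 to -0.28 for complex I, -0.21 to -0.0587 for complex II, -0.53 to -0.23 for complex III, -0.11 to 0.21 for complex IV, -0.31 to -0.25 for complex V, -0.78 to -0.58 for complex I assembly factors and -0.29 to -0.15 for associated factors. Calls ranged from 0 to 18 for the assembly factors of complexes II to V, 0 to 12 for the tricarboxylic acid cycle, 0 to 10 for the regulators and 0 to 68 for mitochondrial ribosomal proteins, with medians of -0.62 to -0.36, -0.59 to -0.23, -0.80 to -0.29 and -0.85 to -0.45. The calls came without TAK-931-1, where 28.7% of all genes were called, or without TAK-931-2, where 58.1% were.

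Of 663 values of named genes, 574 kept direction and side of the threshold, and 27 turned sign. The rest kept direction and passed the threshold, most of them without TAK-931-1 or without TAK-931-2. Those are the fits in which large shares of all genes were called, as given above. Among those that turned, Cox4i2 was 0.0213 with median-of-ratios factors, 0.0454 with at least 10 counts and 0.0213 with DESeq2, Pdha1 was 0.00531, 0.0327 and 0.00534, and Mrpl24 was 0.0117, 0.0375 and 0.0118. Uqcr10 was -0.0168 without a filter. With 1 library left out, the lowest and highest values were -0.14 and 0.0775 for Cox4i2, -0.57 and 1.07 for Cox7a1, -0.40 and 0.0981 for Ndufa4, -0.13 and 1.39 for Ndufa4l2, -0.0795 and 0.14 for Sdha, -0.14 and 0.25 for Ndufs4, -0.0831 and 1.29 for Ndufa3, -0.15 and 0.13 for Uqcr10, -0.19 and 0.10 for Pdha1, -0.30 and 0.16 for Mrpl24 and -1.81 and 0.20 for Ppargc1b.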
